A study of Mus musculus with 12 samples.

Results

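Glycosaminoglycans are long sugar chains that coat cells and fill the extracellular matrix. A tetrasaccharide linker is built on a serine of a core protein and then extended to chondroitin or heparan, and sulfotransferases place sulfates along the chain, which set the growth factors and matrix proteins it can bind. Hyaluronan is made at the plasma membrane without a core protein and is not sulfated, and in the lysosome all of these chains are taken apart sugar by sugar. In the brain such chains make up much of the matrix through which glioma cells move. The 53 enzymes described here are those of linker, chondroitin, heparan and hyaluronan synthesis, sulfation and breakdown, taken by gene symbol, and 51 of them were measured by a probe set of their own among 19938 genes. Ndst1 was not analysed here, and neither was Hyal1, whose probe set is shared with Naa80.

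Tumor cells that carry ZsGreen were sorted from brains, and their RNA was compared between pEGFR-Hi and pEGFR-Lo tumors (6 FVB mice each, 1 array per mouse). Both lines go back to neural progenitors taken from the subventricular zone of mice null for Ink4a/Arf. The progenitors were given human EGFRvIII, a constitutively active receptor variant that lacks part of the ligand-binding domain, grown as tumors in mouse brains and kept as tumorspheres. Before the sort, myelin and red blood cells were removed with Percoll, and DAPI served to leave out dead cells. pEGFR-Hi has high and pEGFR-Lo low EGFRvIII phosphorylation. For both groups 2 µl of cells at 200000 per µl were injected into the brain, and brains were taken near the median survival of each group, so effects of the line and of days since injection cannot be told apart. Each group is 1 tumor line, and the p-values measure the spread among mice that carry it. The sources used here do not give the age of the mice.

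Values are log2 RMA values, in which 1 unit is a doubling, and differences are pEGFR-Hi minus pEGFR-Lo. A gene was called when limma gave a Benjamini-Hochberg adjusted p under 0.01 over all genes together with a difference of at least 2-fold. A log2 value of 4.1, below which 95% of 1027 olfactory receptor genes lay, was taken as background. Levels of different genes are not set against each other, since probes differ in brightness. All 7 neural progenitor and glioma markers were above background on average (mean over the list 9.16 to 9.45 in pEGFR-Hi and 9.23 to 9.31 in pEGFR-Lo), with Fabp7 called 2.58-fold lower and Cd44 2.08-fold higher in pEGFR-Hi. Of 8 microglia and macrophage markers, 4 averaged above background in both groups, namely Cx3cr1 (5.28 in pEGFR-Hi and 5.13 in pEGFR-Lo), Tmem119 (4.56 in pEGFR-Hi and 4.91 in pEGFR-Lo), P2ry12, called 3.36-fold lower in pEGFR-Hi, and Cd68, called 2.36-fold higher, while Csf1r, Aif1, Ptprc and Fcrls were below it. The mean over the list was 4.14 to 4.37 in pEGFR-Hi and 4.09 to 4.46 in pEGFR-Lo. The mean over 6 astrocyte markers was 4.85 to 5.36 in pEGFR-Hi and 5.38 to 6.1 in pEGFR-Lo. Of these, 4 averaged above background in both groups, with Slc1a2 (6.51-fold) and Gja1 (3.07-fold) called lower and Gfap (2.69-fold) higher in pEGFR-Hi. Aqp4 averaged 4.88 in pEGFR-Hi mice, against 4.89 for pEGFR-Lo, and Aldh1l1 and Gjb6 were below background. List means of neuron (7 genes), oligodendrocyte (5), endothelial (7) and pericyte or fibroblast markers (6) lay between 3.69 and 4.29 in every pEGFR-Hi mouse and between 3.7 and 4.68 in every pEGFR-Lo mouse, with 4, 2, 2 and 3 genes of these lists above background over all mice. Of these genes Rgs5 was called lower in pEGFR-Hi, averaging 3.97 there and 7.59 in pEGFR-Lo. Anpep was called higher, averaging 5.35 in pEGFR-Hi and 3.63 in pEGFR-Lo. The part of such cells in the results was not tested. Replicates 3 and 6 of pEGFR-Lo stood apart in interferon-stimulated genes. The mean over 6 such genes was 7.38 to 9.0 in pEGFR-Hi mice, while for pEGFR-Lo it was 4.91 (replicate 3), 4.8 (replicate 6) and 5.9 to 6.53 (the remaining mice).

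Of the 51 enzymes, 12 were called lower in pEGFR-Hi than in pEGFR-Lo and 1 was called higher. Over all genes 5.06% were called lower in pEGFR-Hi and 3.99% higher (9.05% in either direction), and among the 13519 genes above background 7.23% and 5.77%. The 12 were Xylt1 of the linker, B3gat1 and B3gat2 of the HNK-1 epitope, the sulfotransferases Chst7, Chst11, Chst12 and Ust of chondroitin, Ext1 of heparan polymerization, the sulfotransferases Hs3st1, Hs3st5 and Hs6st1 of heparan, and the extracellular sulfatase Sulf2. Chst14, which sulfates dermatan, was the enzyme called higher. The median difference over the 51 was -0.09, against 0.01 over all genes, and 26 of the 51 were within 0.5 of no difference, against 78% of all genes and 69% of those above background. At an unadjusted p under 0.05, 8 of the 51 had higher and 23 lower values in pEGFR-Hi. The shares over all genes at that limit were 23% higher and 19.8% lower, and among genes above background 31.2% and 25.8%. In sorted cells less RNA per cell cannot be told apart from fewer cells that make it. The values of the groups did not overlap for 25 of the 51 enzymes, for 23.3% of all genes and for 4479 of the 13519 genes above background. Without pEGFR-Lo replicates 3 and 6 the calls were 10 lower and 1 higher, with Chst12 (-0.96) and Ust (-1.0, just short of 2-fold) no longer called. These replicates had the highest pEGFR-Lo values of Xylt1, B3gat1, Chst7, Chst12, Hs3st5 and Hs6st1, and the lowest of Chst11. For the other enzymes called lower they were neither together.

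**Figure D1:**
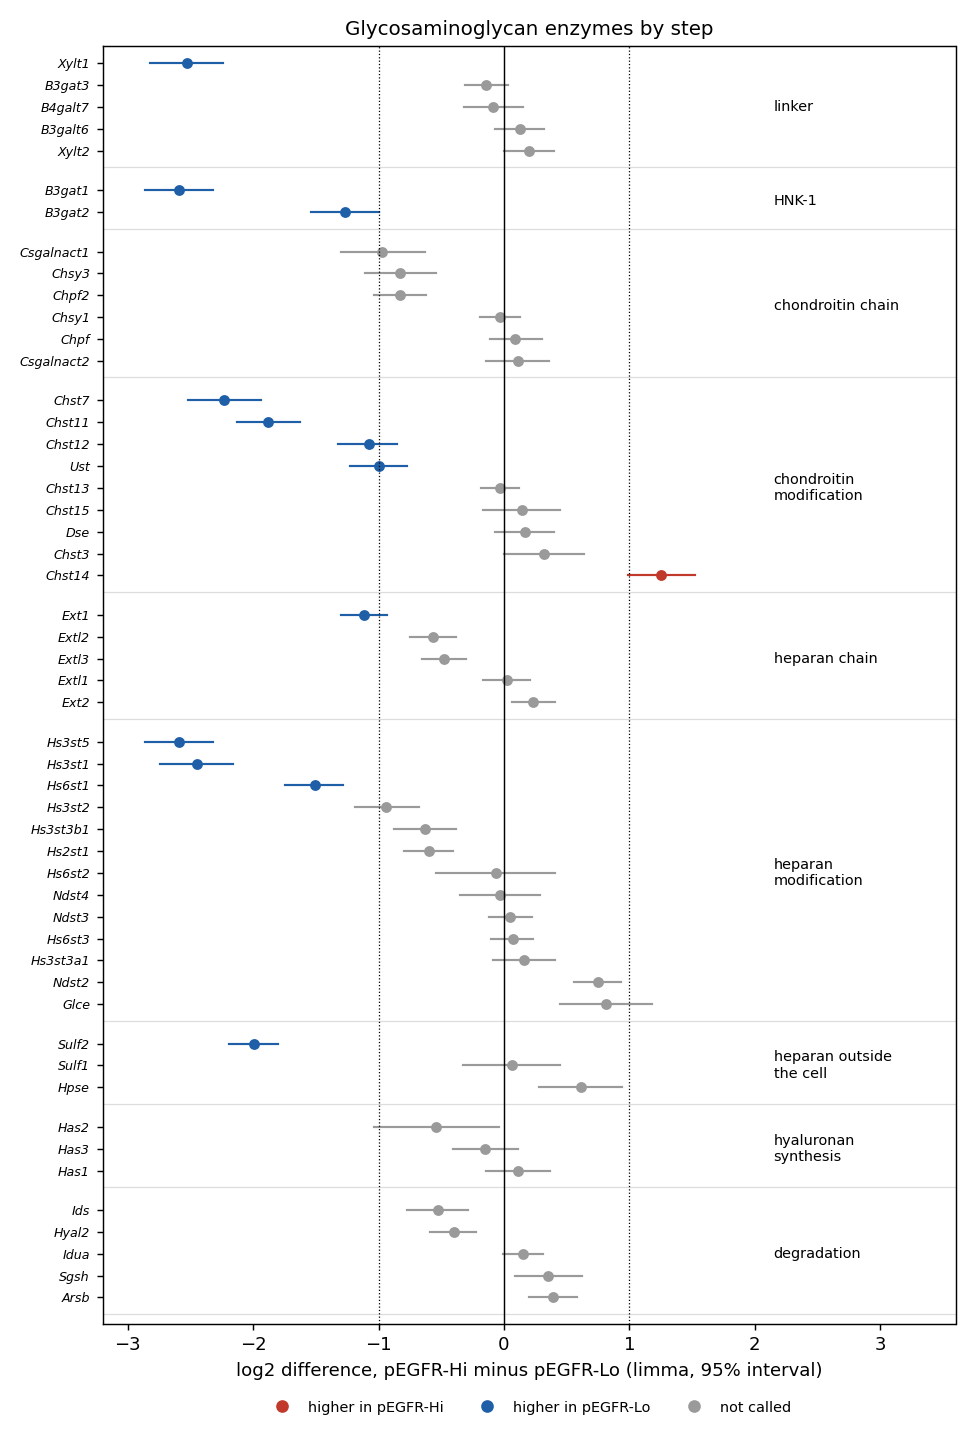
Log2 value in pEGFR-Hi minus that in pEGFR-Lo (x axis) for each of the 51 measured enzymes (y axis), grouped by step. Points are limma estimates from 6 mice per group, bars are 95% intervals, dotted lines mark 2-fold and color marks the call. The blue points left of the line, from B3gat1 at -2.59 to Ust at -1.0, are the 12 enzymes lower in pEGFR-Hi, and Chst14 at 1.25 is the enzyme higher in pEGFR-Hi.

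Of the 5 linker enzymes, 1 was called lower in pEGFR-Hi, as were 5.06% of all genes, and 4 were not called. Xylt1 and Xylt2 are the xylosyltransferases that place the first sugar on the core protein. Xylt1 lay at 5.45 to 6.09 in pEGFR-Hi (median 5.72), against 7.9 to 8.55 in pEGFR-Lo (median 8.25). The groups did not overlap, and each pEGFR-Hi mouse was below every pEGFR-Lo mouse. Xylt1 was 5.78-fold lower in pEGFR-Hi (difference -2.53 ± 0.14 SE, adjusted p = 6.09e-10 from limma). Xylt2 lay at 6.28 to 6.72 in pEGFR-Hi (median 6.54), against 6.1 to 6.46 in pEGFR-Lo (median 6.36), with overlapping groups and a difference of 0.2 (95% interval 0.0 to 0.4). The pairs of related enzymes set against each other here were picked with results known, so their ratios are a description. As a ratio within each array, Xylt1 over Xylt2 was 6.64-fold lower in pEGFR-Hi, at -0.77 ± 0.41, than in pEGFR-Lo, at 1.96 ± 0.27 (log2, SD, n = 6 mice each). The galactosyltransferases B4galt7 and B3galt6 and the glucuronyltransferase B3gat3, which complete the linker, differed by -0.09 (95% interval -0.32 to 0.15), 0.13 (95% interval -0.07 to 0.32) and -0.14 (95% interval -0.31 to 0.03). These intervals leave out differences of 2-fold for the enzymes downstream of the first sugar.

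B3gat1 and B3gat2 are relatives of B3gat3 that are best known for building the HNK-1 epitope, a sulfated sugar of neural adhesion molecules, and both were lower in pEGFR-Hi. B3gat1 lay at 4.72 to 5.18 in pEGFR-Hi (median 4.97), against 7.2 to 7.89 in pEGFR-Lo (median 7.52), 6.02-fold lower in pEGFR-Hi (adjusted p = 1.88e-10 from limma). B3gat2 lay at 4.59 to 5.43 in pEGFR-Hi (median 4.79), against 5.94 to 6.37 in pEGFR-Lo (median 6.11), 2.41-fold lower in pEGFR-Hi (adjusted p = 7.85e-07 from limma). Neither pair of groups overlapped. B3gat3, the member of the same family that acts on the linker, averaged 7.63 ± 0.1 in pEGFR-Hi and 7.77 ± 0.12 in pEGFR-Lo (SD, n = 6 mice each), with overlapping groups.

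None of the 6 enzymes that start and extend the chondroitin chain was called by limma or by SAM. At an unadjusted p under 0.05, 3 of the 6 had lower values in pEGFR-Hi, where 19.8% of all genes and 25.8% of those above background did. Csgalnact1, which adds the first N-acetylgalactosamine and so commits the chain to chondroitin, was just short of 2-fold: it lay at 3.97 to 5.19 in pEGFR-Hi (median 4.92), against 5.56 to 5.86 in pEGFR-Lo (median 5.79). Its groups did not overlap, the lowest pEGFR-Hi mouse was replicate 1 at 3.97, and the difference was -0.97 (1.96-fold, adjusted p = 1.22e-04 from limma). Leaving out pEGFR-Hi replicate 2 or 4 or pEGFR-Lo replicate 3 brought it to -1.01, -1.05 and -1.01, past the limit. Without pEGFR-Hi replicate 1, whose value was below background, the difference shrank to -0.81. Its relative Csgalnact2 differed by 0.11 (95% interval -0.14 to 0.36). Of the polymerizing enzymes, Chsy3 (-0.83, 1.77-fold) and Chpf2 (-0.83, 1.78-fold) had lower values in every pEGFR-Hi than in any pEGFR-Lo mouse. Their relatives Chsy1 (-0.03, 95% interval -0.19 to 0.13) and Chpf (0.09, 95% interval -0.11 to 0.3) overlapped between the groups, and the ratio of Chpf over Chpf2 was 1.05 ± 0.17 in pEGFR-Hi and 0.13 ± 0.22 in pEGFR-Lo (log2, SD, n = 6 mice each). In each of these 3 families the values of 1 relative were thus apart between the lines and those of the other overlapped. The groups were apart for 23.3% of all genes and for 4479 of the 13519 genes above background. Whether relatives split more often than other genes was not tested.

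Among the 9 enzymes that modify chondroitin and dermatan, 4 were called lower and 1 higher in pEGFR-Hi, as were 5.06% and 3.99% of all genes. Chst11 and Chst12 sulfate position 4 of the N-acetylgalactosamine of chondroitin, Chst3 and Chst7 sulfate position 6, and Chst14 sulfates position 4 in dermatan, the form of the chain in which Dse has turned glucuronic into iduronic acid. The stretches of 250 bases upstream of the annotated starts of Chst11, Chst7 and Chst14 are shown as examples of sulfotransferases that differed in opposite directions. Those of Chst12 and Ust, which were also called lower, are not shown. They are RefSeq sequences of GRCm38.p6, all on the plus strand, at chr10:82985247-82985496, chrX:20059320-20059569 and chr2:118926247-118926496, written 5′ to 3′ with 3 motifs found on either strand in capitals, namely the GC box GGGCGG, the E-box form CAGCTG and the other E-box form, CACGTG.
Chst11: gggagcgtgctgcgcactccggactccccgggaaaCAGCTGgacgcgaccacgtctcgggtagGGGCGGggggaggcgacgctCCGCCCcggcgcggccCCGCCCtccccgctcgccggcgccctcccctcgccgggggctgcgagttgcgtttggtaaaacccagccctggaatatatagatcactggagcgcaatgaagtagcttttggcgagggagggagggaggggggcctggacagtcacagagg
Chst7: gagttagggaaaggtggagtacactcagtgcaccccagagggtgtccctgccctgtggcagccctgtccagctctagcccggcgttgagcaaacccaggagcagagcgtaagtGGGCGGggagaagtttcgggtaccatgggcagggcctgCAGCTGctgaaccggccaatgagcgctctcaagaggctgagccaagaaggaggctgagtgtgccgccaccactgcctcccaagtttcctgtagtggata
Chst14: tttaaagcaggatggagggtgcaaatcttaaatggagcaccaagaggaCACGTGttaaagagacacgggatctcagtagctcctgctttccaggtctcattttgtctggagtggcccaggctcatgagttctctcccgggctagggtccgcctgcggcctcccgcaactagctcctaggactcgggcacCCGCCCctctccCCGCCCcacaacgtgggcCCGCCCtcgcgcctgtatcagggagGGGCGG
Promoter sequences covering 250 bases before to 50 after the start were found for 41 of the 51 enzymes, and 10 of these belong to the called ones. The enzymes lower in pEGFR-Hi had 10 promoters, of 9 genes, while Xylt1, B3gat2 and Ext1 had none. CAGCTG, which like other E-boxes is bound by basic helix-loop-helix factors, stood in 5 of the 10 promoters of enzymes lower in pEGFR-Hi (B3gat1, Chst7, Chst11, Hs3st5 and Sulf2, which has 2 promoters in the table), in 10.8% of the 37 promoters of enzymes not called and in 16.3% of all 32851 promoters. The GC box stood in 7 of the 10, in 56.8% and in 35.7%. CACGTG stood in none of the 10, in the promoter of Chst14, in 13.5% of those of enzymes not called and in 7.15% of all. TATAAA, the TATA box, stood in 1 of the 10, in 2.7% and in 13.6%. No promoter of a measured enzyme held TGACTCA (5.2% of all promoters) or TTCNNNGAA (8.3% of all), the letters of AP-1 and STAT sites. A match is a run of letters and not a site shown to be bound. The motifs were chosen with earlier results of these data known, the promoters are few, and no test was run on these shares.

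Chst11 lay at 7.17 to 7.82 in pEGFR-Hi (median 7.51), against 9.22 to 9.61 in pEGFR-Lo (median 9.36). Chst11 was 3.68-fold lower in pEGFR-Hi (difference -1.88 ± 0.12 SE, adjusted p = 3.55e-09 from limma), with no overlap. Chst7 lay at 5.72 to 6.41 in pEGFR-Hi (median 6.08), against 7.93 to 8.66 in pEGFR-Lo (median 8.32). Chst7 was 4.68-fold lower (adjusted p = 2.65e-09 from limma), again with every pEGFR-Hi mouse below every pEGFR-Lo mouse. Chst12 lay at 6.56 to 6.96 in pEGFR-Hi (median 6.68), against 7.51 to 8.16 in pEGFR-Lo (median 7.78), a 2.12-fold difference (adjusted p = 9.13e-07 from limma) without overlap. Ust, which sulfates the uronic acid next to the galactosamine, stood at the 2-fold limit: it lay at 5.98 to 6.41 in pEGFR-Hi (median 6.11), against 6.85 to 7.47 in pEGFR-Lo (median 7.18), with no overlap and a difference of -1.0 (95% interval -1.23 to -0.77; adjusted p = 1.39e-06 from limma). Its call rests on the limit of 2-fold and not on the p: it was lost in 9 of 22 alternatives, with differences of -0.94 to -1.06 over all of them.

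Chst14 lay at 7.67 to 8.28 in pEGFR-Hi (median 8.13), against 6.58 to 7.15 in pEGFR-Lo (median 6.77). All pEGFR-Hi mice were above all pEGFR-Lo mice, and Chst14 was 2.38-fold higher in pEGFR-Hi (difference 1.25 ± 0.12 SE, adjusted p = 5.99e-07 from limma). As a ratio within arrays, Chst11 over Chst14 was -0.53 ± 0.32 in pEGFR-Hi and 2.6 ± 0.3 in pEGFR-Lo (log2, SD, n = 6 mice each), 8.76-fold lower in pEGFR-Hi. Chst11 over Chst12, which share a substrate, was 0.80 ± 0.35 in pEGFR-Hi and 1.6 ± 0.35 in pEGFR-Lo, with overlapping values. The dermatan epimerase Dse differed by 0.17 (95% interval -0.07 to 0.4), a further chondroitin 4-sulfotransferase Chst13 by -0.03 (95% interval -0.18 to 0.12), and Chst15, which adds a further sulfate to galactosamine, by 0.14 (95% interval -0.17 to 0.45). Chst15 was above background in 5 of 6 mice of each group. Chst3 lay at 3.9 to 4.94 in pEGFR-Hi (median 4.27), against 3.75 to 4.16 in pEGFR-Lo (median 4.08), with 4 pEGFR-Hi and 2 pEGFR-Lo mice above background, overlapping groups and a difference of 0.32 (adjusted p = 0.122 from limma).

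**Figure D2:**
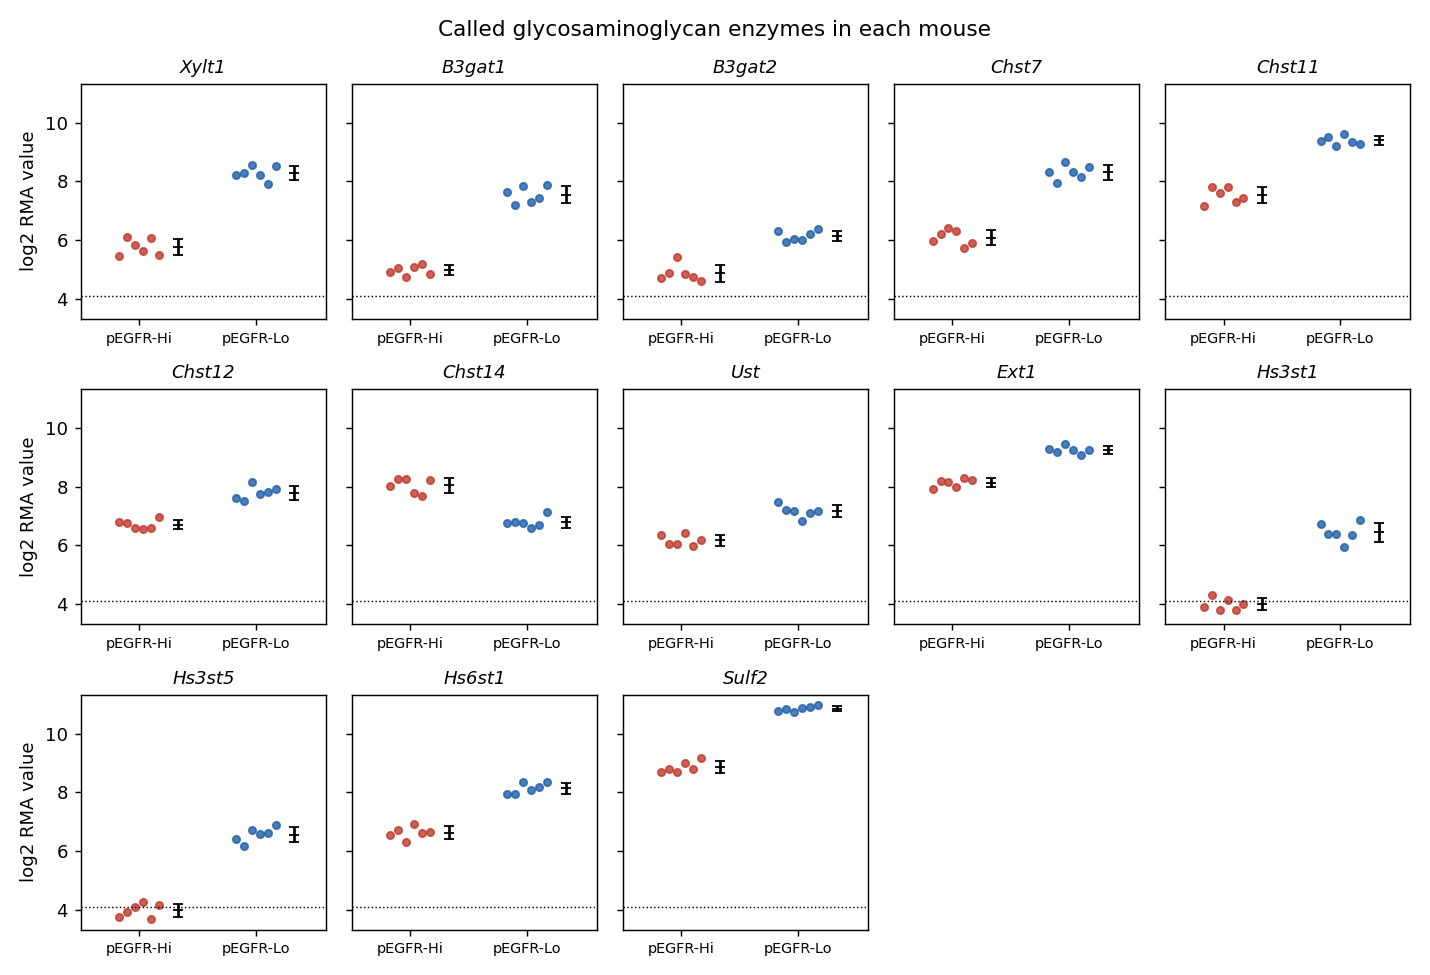
Log2 RMA values (y axis) of the 13 called enzymes in the 6 mice of pEGFR-Hi (red) and the 6 of pEGFR-Lo (blue), side by side on the x axis. A point is a mouse, bars are the mean and SD of a group, and the dotted line is the background level of 4.1. The groups are apart in every panel, Chst14 is the panel with pEGFR-Hi above pEGFR-Lo, and Hs3st1 and Hs3st5 lie around background in pEGFR-Hi.

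Of the 5 genes of the EXT family, which start and extend heparan chains, 1 was called lower in pEGFR-Hi, as were 5.06% of all genes. Ext1 and Ext2 form the heparan copolymerase together. Ext1 lay at 7.92 to 8.31 in pEGFR-Hi (median 8.18), against 9.08 to 9.45 in pEGFR-Lo (median 9.26), 2.17-fold lower in pEGFR-Hi (adjusted p = 3.97e-08 from limma) and without overlap. Ext2 lay at 9.4 to 9.59 in pEGFR-Hi (median 9.5), against 9.04 to 9.45 in pEGFR-Lo (median 9.28), with overlapping groups and a difference of 0.23 (95% interval 0.06 to 0.41). Ext1 over Ext2 within arrays was -1.36 ± 0.19 in pEGFR-Hi and -0.01 ± 0.17 in pEGFR-Lo (log2, SD, n = 6 mice each), so the values of the partners did not differ alike between the lines. Extl2 and Extl3 act on the linker and at the first sugars of the heparan chain. Extl2 lay at 7.51 to 7.75 in pEGFR-Hi (median 7.63), against 7.95 to 8.45 in pEGFR-Lo (median 8.19), a difference of -0.57 (1.48-fold) with no overlap. Extl3 had a difference of -0.48 (1.39-fold), also without overlap, and the ratio of Extl2 over Extl3 differed by -0.09. Extl1 differed by 0.02 (95% interval -0.17 to 0.21). Ext1 lies on chromosome 15, where the median difference of 543 genes above background was -0.27, against 0.03 over all such genes. The median of the 20 nearest of them to Ext1 was -0.22, and the part of this shift in the value of Ext1 was not tested. On the other chromosomes that hold these enzymes the medians ran from -0.12 (X, with Chst7, Hs6st2 and Ids) to 0.2 (14, with Extl3, Ndst2 and Hs6st3).

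Heparan is modified in the Golgi by N-deacetylase and N-sulfotransferases (Ndst), an epimerase (Glce) and sulfotransferases for positions 2, 6 and 3, in about that order. Of 13 measured enzymes of this kind, 3 were called lower in pEGFR-Hi and none was called higher by limma or by SAM. Of all genes 5.06% were called lower and 3.99% higher. The 3 belong to the late steps at positions 6 and 3, as do most of the 13. Ndst1, of the early steps, was not analysed. At an unadjusted p under 0.05, 2 of the 13 had higher and 6 lower values in pEGFR-Hi (23% and 19.8% of all genes). Hs3st5 and Hs3st1 are 3-O-sulfotransferases, whose rare modification is known from the antithrombin site of heparin. Hs3st5 lay at 3.67 to 4.25 in pEGFR-Hi (median 4.0), against 6.17 to 6.88 in pEGFR-Lo (median 6.6). Its groups did not overlap, and 2 of 6 pEGFR-Hi mice were above background, at 4.25 and 4.15. By group means Hs3st5 was at least 5.49-fold lower in pEGFR-Hi (adjusted p = 2.29e-10 from limma), the fold being taken against the background level. Hs3st1 lay at 3.81 to 4.32 in pEGFR-Hi (median 3.95), against 5.96 to 6.87 in pEGFR-Lo (median 6.38), at least 5.06-fold lower in pEGFR-Hi by group means (adjusted p = 1.03e-09 from limma), without overlap and with pEGFR-Hi replicates 2 and 4 above background at 4.32 and 4.12. Both genes were above background in all 6 pEGFR-Lo mice.

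The remaining 3-O-sulfotransferases had smaller differences. Hs3st2 lay at 4.65 to 4.96 in pEGFR-Hi (median 4.84), against 5.41 to 6.17 in pEGFR-Lo (median 5.74), with no overlap. Hs3st2 was under the 2-fold limit at -0.94 (1.91-fold, adjusted p = 1.17e-05 from limma). Its difference was -1.01 without pEGFR-Lo replicate 1 and -0.77 without pEGFR-Lo replicates 3 and 6. Hs3st3b1 differed by -0.63 (1.55-fold), also without overlap, and Hs3st3a1 was below background in all mice (difference 0.16). Of the 6-O-sulfotransferases, Hs6st1 lay at 6.29 to 6.93 in pEGFR-Hi (median 6.63), against 7.93 to 8.35 in pEGFR-Lo (median 8.12). Hs6st1 was 2.85-fold lower in pEGFR-Hi (difference -1.51 ± 0.11 SE, adjusted p = 2.08e-08 from limma), with no overlap. Hs6st2 averaged 5.59 ± 0.22 in pEGFR-Hi and 5.65 ± 0.61 in pEGFR-Lo (difference -0.06, 95% interval -0.54 to 0.41), and Hs6st3 differed by 0.07 (95% interval -0.1 to 0.23). The ratio of Hs6st1 over Hs6st2 was 1.04 ± 0.26 in pEGFR-Hi and 2.49 ± 0.57 in pEGFR-Lo (log2, SD, n = 6 mice each), with no overlap. The 2-O-sulfotransferase Hs2st1 had a difference of -0.6 (1.52-fold), every pEGFR-Hi mouse being below every pEGFR-Lo mouse.

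Among the early modifying enzymes, Ndst2 and Glce had higher values in pEGFR-Hi. Ndst2 removes acetyl groups and adds N-sulfate, and Glce turns glucuronic into iduronic acid. Ndst2 lay at 7.02 to 7.47 in pEGFR-Hi (median 7.35), against 6.47 to 6.7 in pEGFR-Lo (median 6.57), a difference of 0.75 (1.68-fold, adjusted p = 4.47e-06 from limma). Glce lay at 6.38 to 7.29 in pEGFR-Hi (median 6.76), against 5.5 to 6.31 in pEGFR-Lo (median 6.0), a difference of 0.81 (1.76-fold, adjusted p = 0.00132 from limma). Neither pair of groups overlapped, and neither difference reached 2-fold. Ndst3 and Ndst4, of the same family as Ndst2, were below background in all 12 mice (differences of 0.05 and -0.03).

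Outside the cell, heparan chains are edited by the sulfatases Sulf1 and Sulf2, which remove 6-O-sulfates, and cut by the heparanase Hpse. Sulf2 lay at 8.68 to 9.18 in pEGFR-Hi (median 8.8), against 10.74 to 10.97 in pEGFR-Lo (median 10.86). Sulf2 had the smallest adjusted p of the 51 enzymes, at a 3.98-fold lower value in pEGFR-Hi (difference -1.99 ± 0.092 SE, adjusted p = 1.19e-10 from limma) and no overlap. Sulf1 lay at 6.01 to 6.81 in pEGFR-Hi (median 6.64), against 5.81 to 6.85 in pEGFR-Lo (median 6.67), with overlapping groups and a difference of 0.06 (95% interval -0.33 to 0.45). The ratio of Sulf1 over Sulf2 was 4.14-fold higher in pEGFR-Hi, at -2.33 ± 0.23, than in pEGFR-Lo, at -4.38 ± 0.48 (log2, SD, n = 6 mice each). The enzyme that adds 6-O-sulfate, Hs6st1, and the enzyme that removes it, Sulf2, were thus both lower in pEGFR-Hi. Hpse lay at 3.75 to 4.59 in pEGFR-Hi (median 3.87), against 3.01 to 3.8 in pEGFR-Lo (median 3.46). Its groups overlapped, 2 pEGFR-Hi mice and no pEGFR-Lo mouse were above background, and no fold is given for the difference of 0.61 (adjusted p = 0.00534 from limma).

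**Figure D3:**
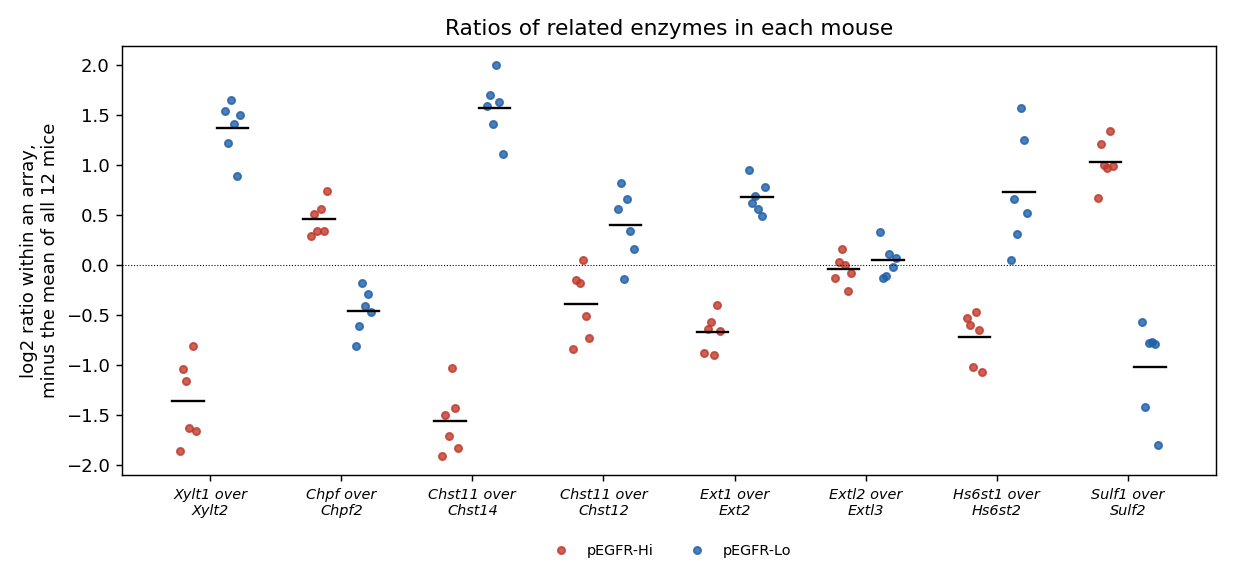
Log2 ratio of related enzymes within each array, centered on the mean of all 12 mice (y axis), for 8 pairs (x axis), with pEGFR-Hi in red left of pEGFR-Lo in blue. Points are mice and lines are group means. Chst11 over Chst14 shows the widest gap (-0.53 in pEGFR-Hi and 2.6 in pEGFR-Lo before centering), while Chst11 over Chst12 and Extl2 over Extl3 overlap.

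No hyaluronan synthase was called by limma or by SAM, and 1 of 3 had a lower value in pEGFR-Hi at an unadjusted p under 0.05 (19.8% of all genes). Has2 was the synthase measured above background. Has2 lay at 4.62 to 6.02 in pEGFR-Hi (median 5.24), against 5.26 to 6.42 in pEGFR-Lo (median 5.79), with overlapping groups and a difference of -0.54 (95% interval -1.04 to -0.04; adjusted p = 0.0905 from limma). Like Ext1 it lies on chromosome 15, and its 20 nearest genes had a median difference of -0.23. Has1 (difference 0.11) and Has3 (-0.15) were below background in all mice. Hyal2, which cuts hyaluronan at the cell surface, averaged 6.85 ± 0.16 in pEGFR-Hi and 7.25 ± 0.086 in pEGFR-Lo across the 6 mice of each line, -0.4 apart with no overlap (1.32-fold, adjusted p = 0.00133 from limma).

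None of the 5 enzymes of breakdown was called by limma or by SAM, while 2 had higher and 2 lower values in pEGFR-Hi at an unadjusted p under 0.05 (23% and 19.8% of all genes). Arsb, the lysosomal sulfatase of chondroitin and dermatan 4-sulfate, averaged 8.5 ± 0.17 in pEGFR-Hi and 8.11 ± 0.094 in pEGFR-Lo (0.39, 1.31-fold), and Sgsh, the sulfamidase of heparan, averaged 6.43 ± 0.2 in pEGFR-Hi and 6.08 ± 0.26 in pEGFR-Lo (0.35, 1.28-fold). Ids lay at 6.81 to 7.28 in pEGFR-Hi (median 7.1), against 7.26 to 7.92 in pEGFR-Lo (median 7.61), a difference of -0.53 (1.45-fold) in this sulfatase of iduronate with overlapping groups. Idua, which removes iduronic acid itself, differed by 0.15 (95% interval -0.01 to 0.31).

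Enzymes of the same pathway outside the list were looked at next. Of 15 measured genes that supply sugar nucleotides and active sulfate, 1 was called, lower in pEGFR-Hi, while 5 had higher and 7 lower values in pEGFR-Hi at an unadjusted p under 0.05. Of the genes above background, as 14 of the 15 were, 31.2% and 25.8% did, and 7.23% were called lower and 5.77% higher. Gfpt2, of the first step of hexosamine synthesis, averaged 6.01 ± 0.23 in pEGFR-Hi and 7.01 ± 0.21 in pEGFR-Lo (SD, n = 6 mice each; 2.01-fold lower in pEGFR-Hi, adjusted p = 4.84e-06 from limma). Of 22 further enzymes of these chains, of keratan sulfate and of their breakdown, 1 was called lower and 1 higher in pEGFR-Hi (4.55% each). These shares are near those of all genes, 5.06% called lower and 3.99% higher. Chst2, which sulfates N-acetylglucosamine, averaged 6.19 ± 0.27 in pEGFR-Hi and 8.35 ± 0.1 in pEGFR-Lo (4.46-fold lower in pEGFR-Hi, adjusted p = 4.36e-10 from limma). Galns, the lysosomal sulfatase for 6-sulfated galactosamine and galactose, averaged 6.72 ± 0.31 in pEGFR-Hi and 5.58 ± 0.21 in pEGFR-Lo (2.19-fold higher in pEGFR-Hi, adjusted p = 6.05e-06 from limma).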

How the data were processed

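The authors hybridized RNA of sorted tumor cells to Affymetrix Mouse Gene 1.0 ST arrays and deposited log2 values made by RMA in Affymetrix Expression Console (version not given in the sources used here). RMA corrects background, gives all arrays 1 distribution and summarizes probes, so a change in total RNA per cell is not seen. The deposited table held 35556 probe sets on 12 arrays, with array medians of 4.81 to 4.88. Groups and replicate numbers came from the sample titles.

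In the platform annotation 21789 probe sets had 1 gene symbol, 1621 several and 12146 none. The brightest probe set with a single symbol stood for each of 19938 genes, 999 of which had more than 1. Names and neighbors came from RefSeq (GRCm38.p6), and promoter sequences from the same build. The values were fitted with limma 3.58.1 (lmFit, eBayes) in R 4.3.3 with the package data.table (version 1.17.8), and figures were drawn with matplotlib 3.10.9 in Python 3.11.15. The code was tested on simulated data. Limits of 0.01 on the adjusted p and of 2-fold follow the paper's methods, where they were applied with SAM.

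The enzymes, lists, related pairs and motifs were chosen with earlier results of these data known, and no test was run on a list. The paper's own pathway analysis of these arrays listed chondroitin and heparan sulfate biosynthesis as enriched in pEGFR-Lo. Every measured enzyme is named, with ranges for the called ones and, in each step, the uncalled one farthest from 0. The cell type markers are given as list means with the called markers named, and the 6 interferon-stimulated genes were Ifit1, Ifit3, Irf7, Oas2, Rsad2 and Usp18. Precision is limited by the number of arrays. Alternatives were SAM, a second quantile normalization, median centering, a filter on dim genes, a replicate block, array weights, eBayes with trend and robust, an adjusted p under 0.05 without a fold limit, the mean of probe sets, and leaving out arrays.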

Additional observations from a re-analysis of the deposited data

Results flagged for a closer look

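In 6 of 102 groups (51 enzymes in 2 groups of 6 mice), 1 mouse lay far from the other 5, by Dixon's test at 95%. Chance alone flags about 1 in 20 groups. In pEGFR-Hi, B4galt7 was 5.50 in replicate 2 (5.95 to 6.11 in the others), B3galt6 was 6.97 in replicate 4 (6.49 to 6.62), B3gat2 was 5.43 in replicate 3 (4.59 to 4.88) and Hs3st3b1 was 6.19 in replicate 6 (6.60 to 6.80). In pEGFR-Lo, Has3 was 3.96 in replicate 3 (3.31 to 3.49), which is below background, and Hyal2 was 7.41 in replicate 5 (7.19 to 7.25). Of these genes B3gat2 was called, and its highest pEGFR-Hi mouse was still below the lowest pEGFR-Lo mouse.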

How the results depend on the processing

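The counts of 1 enzyme higher and 12 lower in pEGFR-Hi were 1 and 12 with SAM, after a second quantile normalization, without dim genes, with trend and robust eBayes and with the mean of probe sets, and 1 and 11 with median centering and with array weights. Leaving out 1 mouse at a time gave 1 to 1 and 11 to 13. With an adjusted p under 0.05 and no fold limit the counts were 7 higher and 22 lower, and over all genes 3871 and 3314 in place of 795 and 1009. Ust lost its call with median centering and array weights (-0.98 each), without pEGFR-Lo replicates 3 and 6 (-1.0), without pEGFR-Hi replicate 2, 3 or 5 (-0.98, -0.98 and -0.96) and without pEGFR-Lo replicate 1, 2 or 3 (-0.94, -0.99 and -1.0). Chst12 lost it only without pEGFR-Lo replicates 3 and 6. The other 11 called enzymes kept their calls in all 22 alternatives. Replicate numbers are shared between the groups, but same-numbered mice did not deviate together (correlations of -0.18 to 0.12), and a fit with the replicate number as a block gave 1 higher and 12 lower, and 801 and 1008 over all genes. Values near background limit Hs3st1, Hs3st5, Hpse, Chst3, Has1, Has3, Hs3st3a1, Ndst3 and Ndst4. To a lesser degree they limit Chst15 and Csgalnact1, whose group means were above background but not the values of all mice.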

Other observations

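The ranges of some enzymes within a group were wider than the difference between the groups. Hs6st2, a 6-O-sulfotransferase of heparan, ranged from 5.32 to 5.97 in pEGFR-Hi and from 4.74 to 6.28 in pEGFR-Lo, where replicates 4 and 5 were lowest at 4.74 and 5.17. Has2, the hyaluronan synthase above background, ranged from 4.62 to 6.02 in pEGFR-Hi and from 5.26 to 6.42 in pEGFR-Lo. Sulf1, the sulfatase related to Sulf2, ranged from 6.01 to 6.81 in pEGFR-Hi and from 5.81 to 6.85 in pEGFR-Lo, while Sulf2 itself had an SD of 0.19 in pEGFR-Hi and 0.084 in pEGFR-Lo.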
